A study of Mus musculus with 6 samples.

Results

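Mouse intestinal organoids in which the retinoid X receptors (RXR) were blocked by an antagonist were compared with organoids kept in medium free of vitamin A, to see how blocking the receptor differs from withholding the vitamin. All deposited cell barcodes of both libraries were used, 3570 with the antagonist and 4963 in vitamin A-free medium, which is 8533 of the 29565 barcodes in the 6 libraries of the series. Organoids are small hollow structures of gut epithelium grown in culture, here from dissociated cells. They came from wild-type C57BL/6 mice aged 8 weeks, and the series text names 2 mice without tying a library to either. One library was from organoids treated with the antagonist at 5 µM on day 0 and again on day 3. Another was from organoids in vitamin A-free medium, for which the labels do not say whether DMSO was added. The library of organoids given the vehicle DMSO serves as the common point of comparison. All 3 were taken at day 4, 96 hours after the first treatment. All organoids had ENR medium (EGF, Noggin and R-Spondin) with Wnt3a, a ROCK inhibitor and the GSK3 inhibitor CHIR99021 until day 3, and ENR alone after it. The labels name the compound only as RXR antagonist (RXRi), and they write the dose unit as μm, read here as micromolar.

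Vitamin A reaches the gut as retinyl esters or as carotenoids, which the enzyme BCO1 cleaves to retinal. Dehydrogenases convert retinol to retinal and retinal to retinoic acid, the ligand of the retinoic acid receptors (RAR), which bind DNA together with RXR. One known target is Isx, a homeobox gene whose product represses Bco1 and Scarb1, so that a well-supplied gut takes up and cleaves less carotenoid. RXR also pairs with PPAR, LXR, FXR, the vitamin D receptor, PXR and CAR, receptors for fatty acids, sterols, bile acids, vitamin D and foreign compounds.

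The promoters of Isx and Bco1 are shown as genes of the vitamin A feedback that lay on opposite sides between the libraries. They are not the genes with the largest ratios. Each window runs from 250 bases before to 50 bases after the RefSeq transcription start on GRCm38.p6, both genes lie on the plus strand of chromosome 8, and capitals mark the hexamer bound by nuclear receptors (AGGTCA, or TGACCT on the other strand).
Bco1, chr8:117095615-117095914: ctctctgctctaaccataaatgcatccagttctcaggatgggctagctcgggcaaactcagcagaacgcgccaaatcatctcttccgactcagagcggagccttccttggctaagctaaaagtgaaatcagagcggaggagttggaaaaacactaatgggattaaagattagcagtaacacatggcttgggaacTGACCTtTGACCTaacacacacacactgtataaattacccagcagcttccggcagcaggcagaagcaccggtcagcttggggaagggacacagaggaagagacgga
Isx, chr8:74872924-74873223: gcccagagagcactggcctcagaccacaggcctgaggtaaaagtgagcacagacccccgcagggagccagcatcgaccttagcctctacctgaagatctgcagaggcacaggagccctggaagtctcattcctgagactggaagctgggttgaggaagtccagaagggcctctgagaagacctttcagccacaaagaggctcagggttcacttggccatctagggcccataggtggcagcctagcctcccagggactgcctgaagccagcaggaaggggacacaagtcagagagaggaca
The Bco1 window held a direct repeat of the hexamer (AGGTCA, any 1 base, AGGTCA, known as DR1), which reads AGGTCAAAGGTCA on the minus strand and starts 56 bases before the start site. Of 32851 RefSeq promoter windows searched on both strands, 13 held a DR1 (0.0396%) and 16.3% held the hexamer at least once. The Isx window held neither. Of 65 genes looked up, 48 had a RefSeq promoter and 13 of them held the hexamer in any of their windows. Some genes had up to 4 windows, so this count cannot be set against the share of single windows. A match describes letters and is not a measured binding site.

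Isx itself was present with the antagonist and nearly absent without vitamin A. Isx (chr8:74873173-74893506, GRCm38) had 4149 unique molecular identifiers (UMIs, counted RNA molecules) with the antagonist, 3 in vitamin A-free medium and 9036 with vehicle. Scaled to the same total in every library (CPM), this is 84.0 CPM with the antagonist (exact 95% Poisson interval 81.5 to 86.6), 0.0577 CPM without vitamin A (0.0119 to 0.169) and 172 CPM with vehicle (168 to 175). The ratio of antagonist to vitamin A-free medium was 1456, with a counting interval from 498 to 7065. All such intervals cover counting error only, and since each treatment had 1 library there is no test and no measure of spread between cultures. The antagonist library thus lay below the vehicle and far above the vitamin A-free library.

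The genes that ISX is known to repress were high only in the vitamin A-free library among these 3. Bco1 (chr8:117095854-117133720), the carotene oxygenase, had 0.466 CPM (0.295 to 0.699) with the antagonist, 45.4 CPM (43.5 to 47.2) in vitamin A-free medium and 1.39 CPM (1.09 to 1.74) with vehicle. It was 97.4-fold lower with the antagonist than without vitamin A (64.7 to 154). Scarb1 (chr5:125277087-125341094), a receptor that takes up carotenoids and lipids, had 10.4 CPM (9.51 to 11.3) with the antagonist, 78.8 CPM (76.4 to 81.2) without vitamin A and 7.64 CPM (6.91 to 8.42) with vehicle. It was 7.58-fold lower with the antagonist (6.91 to 8.32). Bco2, the mitochondrial carotenoid oxygenase, did not share this pattern. It had 107 UMIs with the antagonist, 20.4 CPM (19.2 to 21.7) without vitamin A and 32.6 CPM (31.0 to 34.1) with vehicle.

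**Figure D1:**
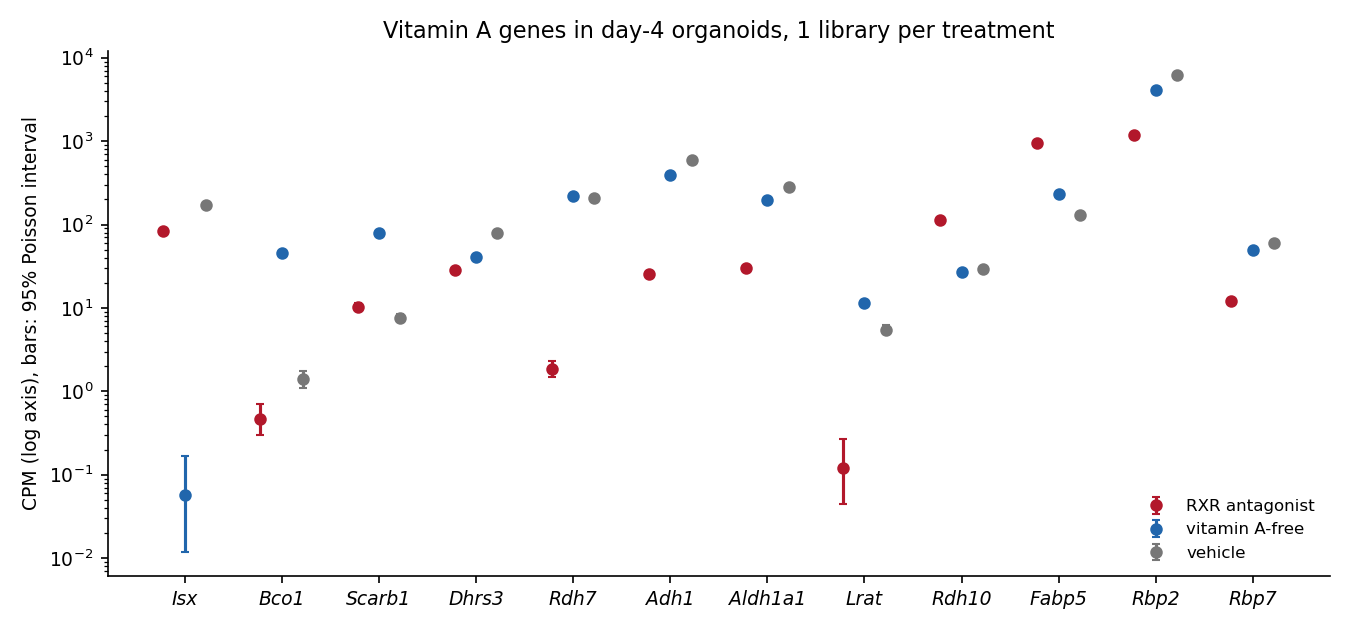
Levels of 12 vitamin A genes in the RXR antagonist, vitamin A-free and vehicle libraries at day 4, in CPM on a log axis, 1 point per library with its exact 95% Poisson interval. Isx was at 84.0 CPM with the antagonist and 0.0577 CPM without vitamin A, while Bco1 and Scarb1 were high without vitamin A.

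The Isx difference held cell by cell. After each cell was thinned to 5000 UMIs, Isx was found in 1069 of 3342 cells with the antagonist (32.0%, exact binomial interval 30.4 to 33.6%), in 1 of 4766 cells without vitamin A (0.0210%, 0.000531 to 0.117%) and in 56.9% of 4419 vehicle cells. Bco1 was found in 0.299% of cells with the antagonist, 16.4% without vitamin A and 0.566% with vehicle. As a background at the same depth, cells with at least 10 hormone-granule UMIs per 5000, taken as cells that should lack Isx, had it in 0 of 29 cells with the antagonist (upper bound of the exact interval 11.9%), 0 of 46 without vitamin A (7.71%) and 3 of 35 with vehicle. For Bco1 these cells are no background, since it was in 0 of 29 of them with the antagonist, 4 of 46 without vitamin A (8.70%, 2.42 to 20.8%) and 8 of 35 with vehicle (22.9%), far above its share of all vehicle cells. The Bco1 shares are thus given with no background level. Without thinning, Isx was found in 53.5% of all barcodes with the antagonist, 0.0604% without vitamin A and 79.0% with vehicle. Within the vitamin A-free library the Bco1 share differed with enterocyte RNA. It was found in 30.7% of 2384 cells with at least 50 enterocyte-list UMIs per 5000, and in 2.18% of 2382 cells below that. In the antagonist library, 568 cells had at least 50 enterocyte-list UMIs. Bco1 was in 0 of these 568 cells, with an exact upper bound of 0.647%, and Isx was in 39.4% of them. Apoa1, a gene of the enterocyte list, was in 1 of 3342 cells with the antagonist and in 44.5% without vitamin A. Cells past this cut are thus not alike in the libraries.

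Across the transcriptome the libraries lay far apart. Of 9576 genes with a mean of at least 5 CPM over both libraries, 575 (6.00%) were higher by 2-fold or more with the antagonist and 860 (8.98%) were lower by as much, on a log2 scale with 5 CPM added. At 1.5-fold, 1196 (12.5%) were higher and 1779 (18.6%) lower, and the median log2 ratio of all genes was -0.09. With TMM scaling the 2-fold counts were 731 higher and 661 lower and the median was 0.084, and with DESeq2 size factors they were 767 and 648 with a median of 0.10. So the balance of higher against lower depended on the scaling, and the directions below are given at equal total UMIs. Against vehicle, the vitamin A-free library had 18 genes at least 2-fold higher (0.189%) and 20 lower (0.210%) of 9515, and at 1.5-fold 121 higher (1.27%) and 113 lower (1.19%), while the antagonist library had 592 at least 2-fold higher (6.29%) and 714 lower (7.58%) of 9417. These comparisons share libraries, so their values are set side by side only. As a yardstick, the 2 day-1 vehicle libraries differed at least 2-fold in 0 and 68 of 9482 genes (0% and 0.717%), library 1 over library 2, and at least 1.5-fold in 0.0633% and 1.98%. A gene near 0 in one library passes the floor through the other, and the lists were chosen with earlier results of these data known. Counts of list members below are thus descriptions, to be read beside the 1.5-fold shares of all genes, 12.5% higher and 18.6% lower.

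**Figure D2:**
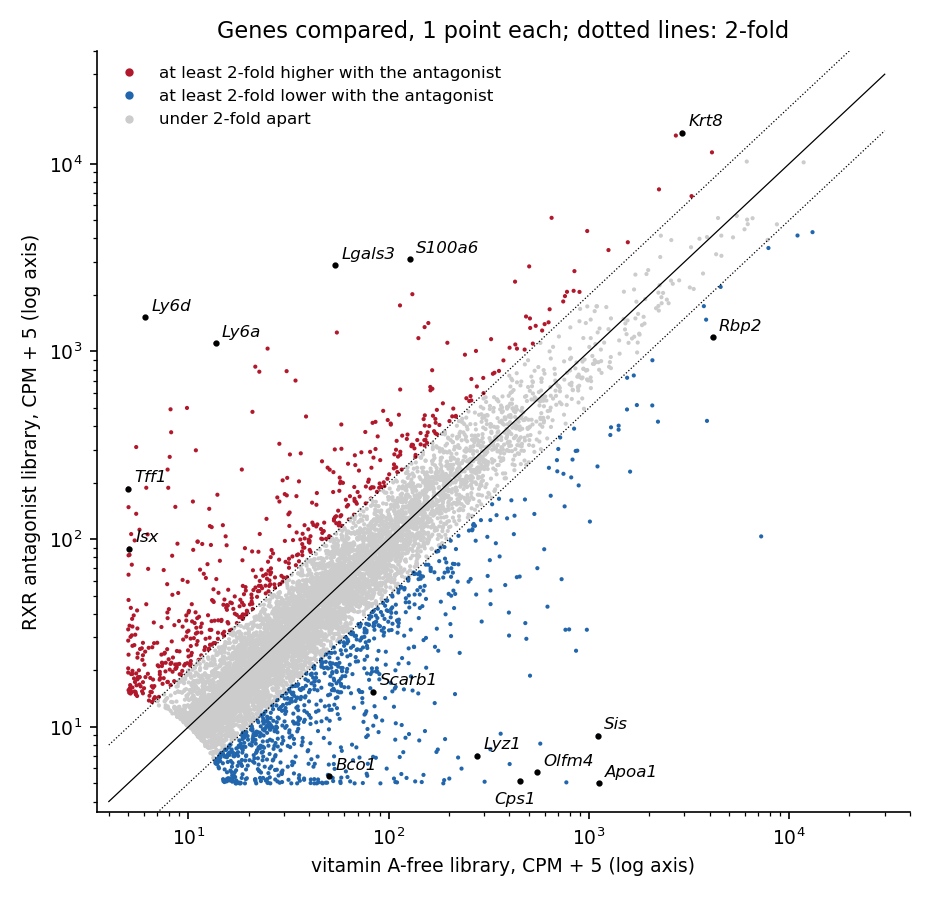
Each of 9576 genes by its level in the vitamin A-free library (x axis) and the RXR antagonist library (y axis), both in CPM + 5 on log axes, with the line of equality and dotted lines at 2-fold. The 575 genes in red were higher by 2-fold or more with the antagonist and the 860 in blue at least 2-fold lower. Labelled genes are black.

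Depth was similar, with 49364894 UMIs in the antagonist library, 51983914 in the vitamin A-free library and 52627278 in the vehicle library. Median UMIs per cell were 13431 with the antagonist, 10011 without vitamin A and 10825 with vehicle. Median mitochondrial shares were 1.84% with the antagonist, 3.69% without vitamin A and 3.58% with vehicle, in cells that had been sorted against debris and death. The antagonist and vitamin A-free libraries shared 4 barcode sequences. Epcam, an epithelial marker, had 2388 CPM with the antagonist, 2817 CPM without vitamin A and 2626 CPM with vehicle. Of 7 immune markers only Cd68 passed the floor, and the list summed to 11.6 CPM with the antagonist, 1.90 CPM without vitamin A and 1.41 CPM with vehicle. The 7 fibroblast markers summed to 4.82 CPM with the antagonist and 10.9 CPM without vitamin A, the 4 endothelial markers to 1.03 CPM with the antagonist and 1.33 CPM without vitamin A, and the 4 red cell markers to 0 in both. The part of cell size and mitochondrial share in the differences below was not tested.

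Most enzymes that make or store retinoids were far lower with the antagonist than without the vitamin. Of 11 compared of 14 listed retinol and retinal enzymes, 9 were at least 1.5-fold lower and 2 higher, with a median log2 ratio of -1.69 against -0.09 for all genes. Rdh7, a retinol dehydrogenase, had 1.86 CPM (1.5 to 2.29) with the antagonist, 217 CPM (213 to 221) without vitamin A and 207 CPM (203 to 211) with vehicle. It was 116-fold lower with the antagonist (94.9 to 145). Adh1, an alcohol dehydrogenase that oxidises retinol, had 25.6 CPM (24.3 to 27.1) with the antagonist, 394 CPM (389 to 399) without vitamin A and 588 CPM (582 to 595) with vehicle. Adh4, another of this family, had 0 UMIs with the antagonist against 1554 UMIs (29.9 CPM) without vitamin A, at least 492-fold lower when 3 UMIs are taken as the floor of a library. Aldh1a1, which makes retinoic acid from retinal, had 30.3 CPM (28.8 to 31.9) with the antagonist and 198 CPM (194 to 202) without vitamin A, 6.55-fold lower. Lrat, which esterifies retinol, had 0.122 CPM (6 UMIs) with the antagonist, 11.5 CPM without vitamin A and 5.49 CPM with vehicle. Its level was lowest with the antagonist and highest without the vitamin among these 3 libraries.

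A few retinoid enzymes lay the other way. Rdh10, which starts the path from retinol to retinoic acid in the embryo, had 113 CPM (110 to 116) with the antagonist, 26.9 CPM (25.5 to 28.3) without vitamin A and 29.6 CPM (28.2 to 31.1) with vehicle, 4.19-fold higher than without vitamin A (3.95 to 4.44). Dhrs9 had 12.3 CPM with the antagonist, 2.85 CPM without vitamin A and 5.09 CPM with vehicle. Aldh1a3, below the floor, had 149 UMIs with the antagonist and 2 without vitamin A, a ratio of 78.5 (21.3 to 654). The 2 retinol and retinal enzymes that were higher among those compared were thus Rdh10 and Dhrs9.

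Dhrs3, which returns retinal to retinol and is induced by retinoic acid, had 28.8 CPM (27.4 to 30.4) with the antagonist, 41.1 CPM (39.3 to 42.9) without vitamin A and 79.6 CPM (77.2 to 82.0) with vehicle. Both libraries were below vehicle for this gene, and the antagonist was 1.42-fold below the vitamin A-free level (1.33 to 1.52). Tgm2, a transglutaminase induced by retinoic acid in many cells, had 0.587 CPM with the antagonist, 13.6 CPM without vitamin A and 15.6 CPM with vehicle. Cyp26b1, which degrades retinoic acid, had 7 UMIs with the antagonist, 2 without vitamin A and 16 with vehicle, too few to order the first pair. Cyp26a1 and Cyp26c1 had 0 UMIs with the antagonist and without vitamin A. Of 10 listed retinoic acid response genes 4 were compared, with 0 at least 1.5-fold higher, 3 lower and a median of -0.70.

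The intracellular retinoid carriers lay on opposite sides. Fabp5, which binds fatty acids and retinoic acid, had 956 CPM with the antagonist, 235 CPM without vitamin A and 131 CPM with vehicle, 4.06-fold higher than without vitamin A (3.98 to 4.15). Rbp2, the retinol-binding protein of absorptive gut cells, had 1182 CPM (1173 to 1192) with the antagonist, 4140 CPM (4123 to 4158) without vitamin A and 6250 CPM (6228 to 6271) with vehicle, and was 3.5-fold lower with the antagonist than without vitamin A (3.47 to 3.53). Rbp7 had 12.1 CPM with the antagonist, 49.9 CPM without vitamin A and 59.6 CPM with vehicle. So over all cells Fabp5 was highest with the antagonist, and Rbp2 and Rbp7 were lowest there. Of 6 compared of 8 listed binding proteins, 2 were at least 1.5-fold higher and 4 lower.

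The receptors themselves differed less, apart from Rarg. Rxra had 9.20 CPM (8.37 to 10.1) with the antagonist, 18.5 CPM (17.4 to 19.8) without vitamin A and 19.7 CPM (18.6 to 21.0) with vehicle. Rxrb had 24.9 CPM with the antagonist, 38.6 CPM without vitamin A and 34.1 CPM with vehicle. Rara had 19.2 CPM with the antagonist, 19.1 CPM without vitamin A and 18.5 CPM with vehicle, with a ratio of 1.01 whose counting interval runs from 0.919 to 1.10. Rarg had 11.5 CPM (10.6 to 12.5) with the antagonist, 1.75 CPM (1.41 to 2.15) without vitamin A and 2.53 CPM (2.12 to 3.00) with vehicle, 6.56-fold higher than without vitamin A. Rxrg had 0 UMIs in both libraries. The 4 receptors compared of 6 listed had 1 member at least 1.5-fold higher, 1 lower and a median of -0.27. Over all genes 12.5% were higher and 18.6% lower.

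RNAs of the partners of RXR lay on both sides. Of 13 compared, 5 were at least 1.5-fold lower with the antagonist (18.6% of all genes were), 2 were higher (12.5% of all genes) and 6 lay within 1.5-fold, with a median of -0.48. Vdr, the vitamin D receptor, had 13.6 CPM (12.6 to 14.6) with the antagonist, 124 CPM (121 to 127) without vitamin A and 117 CPM (114 to 120) with vehicle. Nr1h3, which encodes LXR alpha, had 2.80 CPM with the antagonist, 27.2 CPM without vitamin A and 28.4 CPM with vehicle, and Nr1i3, which encodes CAR, had 21.5 CPM with the antagonist, 69.4 CPM without vitamin A and 75.8 CPM with vehicle. Pparg, a receptor for fatty acids, had 166 CPM (162 to 170) with the antagonist, 26.0 CPM (24.6 to 27.4) without vitamin A and 30.8 CPM (29.4 to 32.4) with vehicle, 6.39-fold higher than without vitamin A (6.04 to 6.78). For these 4 genes the vitamin A-free library differed from vehicle by 1.19-fold at most (Pparg).

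Some known targets of the partners differed between the libraries as well. Of 10 vitamin D receptor, PXR and CAR targets compared, 5 were at least 1.5-fold lower and 1 higher. Of all genes, 18.6% were lower and 12.5% higher. The list's median was -0.64, and -0.30 over all 12 listed. Cyp3a11 had 0 UMIs with the antagonist against 62.6 CPM (60.4 to 64.7) without vitamin A, at least 1029-fold lower, and 85.7 CPM with vehicle. Cyp3a25, of the same cytochrome family, had 0 UMIs with the antagonist against 85.9 CPM (83.4 to 88.4) without vitamin A, at least 1413-fold lower. Cyp2b10, a CAR target, had 1.34 CPM with the antagonist, 397 CPM without vitamin A and 431 CPM with vehicle. UMIs of close paralogs such as the Cyp3a and Ces genes may be split uncertainly between members. S100g, a calcium-binding protein induced by vitamin D, had 83.4 CPM with the antagonist, 593 CPM without vitamin A and 523 CPM with vehicle. The LXR targets Abcg5 and Abcg8 together pump sterols back into the gut lumen. Abcg5 had 5.45 CPM with the antagonist against 103 CPM without vitamin A, and Abcg8 had 5.15 CPM with the antagonist against 78.7 CPM without vitamin A. In all, 4 of 7 LXR targets compared were at least 1.5-fold lower, where 18.6% of all genes were, with 0 higher. Of the bile acid genes, Slc51a and Slc51b encode the basolateral exporter. Slc51a had 17 UMIs with the antagonist against 966 UMIs without vitamin A, and Slc51b had 15 UMIs with the antagonist against 1704 UMIs without vitamin A. Slc10a2, the apical importer of the ileum, lay the other way, with 10.1 CPM (9.22 to 11) with the antagonist against 0.923 CPM (0.681 to 1.22) without vitamin A.

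PPAR targets were split. Of 16 compared of 20 listed, 5 were higher by 1.5-fold or more with the antagonist and 4 lower. Over all genes these shares were 12.5% and 18.6%. The median was 0.30. Acaa1b, a peroxisomal thiolase, had 12 UMIs (0.243 CPM) with the antagonist, 39.4 CPM (37.7 to 41.1) without vitamin A and 63.3 CPM with vehicle. Angptl4, a secreted inhibitor of lipoprotein lipase, had 75.2 CPM (72.8 to 77.7) with the antagonist, 20.7 CPM (19.5 to 22) without vitamin A and 18.8 CPM with vehicle. Acadl, a mitochondrial acyl-CoA dehydrogenase, had 595 CPM with the antagonist, 293 CPM without vitamin A and 255 CPM with vehicle. The peroxisomal genes Acaa1b and Ehhadh (8.83 CPM with the antagonist against 27.5 CPM without vitamin A) thus lay on one side and Angptl4 and Acadl on the other.

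Most absorptive cell genes were lower with the antagonist, some of them near 0 and others still abundant. Of 26 enterocyte genes compared of 28 listed, 25 were lower and 0 higher at 1.5-fold, where 18.6% of all genes were lower. The list's median log2 ratio was -3.59, and -3.40 over all 28. Summed over the list, the level was 5272 CPM with the antagonist, 22153 CPM without vitamin A and 34228 CPM with vehicle. Fabp1, a fatty acid-binding protein, made up most of that sum, with 4316 CPM with the antagonist against 13071 CPM without vitamin A. Fabp2, of the same family, had 418 CPM (412 to 423) with the antagonist, 2206 CPM (2193 to 2219) without vitamin A and 2167 CPM (2154 to 2179) with vehicle, and was found in 60.6% of thinned cells with the antagonist against 91.5% without vitamin A. The hormone-granule cells had it in 2 of 29 with the antagonist (6.90%) and 20 of 46 without vitamin A (43.5%). Vil1, the microvillus protein villin, was the member compared that lay within 1.5-fold, with 306 CPM with the antagonist against 252 CPM without vitamin A. Fabp1 and Vil1 were named after their values were seen. Other members were near 0 with the antagonist. Apoa1, the main apolipoprotein of HDL, had 1 UMI with the antagonist, 1113 CPM (1104 to 1122) without vitamin A and 2455 CPM (2442 to 2469) with vehicle. Apoa4, carried on chylomicrons, had 3 UMIs with the antagonist, 766 CPM without vitamin A and 1001 CPM with vehicle. Sis, the brush-border sucrase-isomaltase, had 3.99 CPM (3.45 to 4.59) with the antagonist, 1104 CPM (1095 to 1113) without vitamin A and 1947 CPM (1935 to 1959) with vehicle, 277-fold lower than without vitamin A (240 to 320). Among the urea cycle genes, Cps1 had 8 UMIs with the antagonist against 23201 UMIs without vitamin A, and Otc had 5 UMIs with the antagonist against 15399 UMIs without vitamin A. The vitamin A-free library lay between antagonist and vehicle for Apoa1, Apoa4 and Sis, while Cps1 was higher there (446 CPM) than with vehicle (367 CPM). In summed UMIs, fewer enterocytes and less of this RNA per enterocyte cannot be told apart. The enterocyte list had a median of -0.54 for vitamin A-free medium over vehicle.

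Genes of regenerating and fetal-like epithelium, which the gut switches on after injury, were far higher with the antagonist. Of 18 genes compared of 21 listed, 18 were higher by at least 1.5-fold, where 12.5% of all genes were, and the median was 4.80 (4.60 over all 21). The list was chosen with earlier results of these data known, and members such as Ly6d passed the floor through the antagonist library. The count is thus a description and not support. For vitamin A-free medium over vehicle this list's median was 0.24. Ly6a (Sca-1), a surface protein of regenerating crypts, had 1099 CPM (1090 to 1109) with the antagonist, 8.66 CPM (7.88 to 9.49) without vitamin A and 2.47 CPM (2.06 to 2.93) with vehicle. It was 127-fold higher than without vitamin A (116 to 140). Ly6d had 1519 CPM (1508 to 1530) with the antagonist, 1.08 CPM (0.814 to 1.40) without vitamin A and 0.342 CPM (0.203 to 0.541) with vehicle, 1410-fold higher (1086 to 1867). Lgals3, a lectin, had 2877 CPM with the antagonist, 49.1 CPM without vitamin A and 48.8 CPM with vehicle, and S100a6, a calcium-binding protein, had 3097 CPM with the antagonist, 123 CPM without vitamin A and 55.9 CPM with vehicle. For the Ly6 genes and S100a6 the vitamin A-free library was also above vehicle, by 3.5-fold for Ly6a (2.88 to 4.29), 3.15-fold for Ly6d (1.82 to 5.69) and 2.19-fold for S100a6 (2.10 to 2.29). Lgals3 differed by a ratio of 1.00 there (0.951 to 1.06).

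Genes of stratified and barrier epithelia were higher as well. Of 5 compared of 10 listed, 5 were higher by at least 1.5-fold, where 12.5% of all genes were, and the median was 3.17 (1.47 over all 10). This list, too, was chosen with earlier results known, so the count is a description. Sprr1a, a cornified envelope protein, had 487 CPM (481 to 493) with the antagonist, 3.14 CPM (2.67 to 3.66) without vitamin A and 4.47 CPM (3.91 to 5.07) with vehicle. Krt4, a keratin of stratified epithelium, had 2094 UMIs with the antagonist, 1 without vitamin A and 2 with vehicle. Krt7 had 1412 CPM with the antagonist, 153 CPM without vitamin A and 151 CPM with vehicle, and Cldn4, a tight junction protein, had 278 CPM with the antagonist, 27.1 CPM without vitamin A and 19.4 CPM with vehicle. The simple-epithelium keratin Krt8 had 14625 CPM with the antagonist, 2914 CPM without vitamin A and 2916 CPM with vehicle. Tff1, a peptide of the stomach surface, had 8937 UMIs (181 CPM) with the antagonist and 0 in both other libraries, at least 3137-fold higher than without vitamin A. It was the only gene of 10 listed gastric-type genes that passed the floor. Among the other genes with the largest ratios were Msln (366 CPM with the antagonist, 3.19 CPM without vitamin A, 0.0380 CPM with vehicle), which encodes mesothelin, and the annexins Anxa1 (269 CPM with the antagonist, 3.06 CPM without vitamin A, 0.323 CPM with vehicle), Anxa3 (825 CPM with the antagonist, 16.6 CPM without vitamin A, 7.70 CPM with vehicle) and Anxa10 (495 CPM with the antagonist, 4.83 CPM without vitamin A, 3.23 CPM with vehicle).

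Ligands of the EGF receptor were higher too, among them amphiregulin. Areg had 1754 CPM (1742 to 1766) with the antagonist, 109 CPM (106 to 112) without vitamin A and 130 CPM (127 to 133) with vehicle, 16.1-fold higher than without vitamin A (15.7 to 16.6). Btc, another ligand of the EGF receptor, had 169 CPM with the antagonist, 25.3 CPM without vitamin A and 19.7 CPM with vehicle. Of 7 EGF family genes compared of 10 listed, 4 were at least 1.5-fold higher, where 12.5% of all genes were, and 0 lower. Of 4 YAP and TEAD targets compared, F3 (472 CPM with the antagonist against 15.9 CPM without vitamin A), Ccn2 (21.0 CPM with the antagonist against 0.731 CPM without vitamin A) and Ajuba (9.89 CPM with the antagonist against 2.56 CPM without vitamin A) were higher with the antagonist, and Ccn1 (12.7 CPM with the antagonist against 48.4 CPM without vitamin A) was lower.

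**Figure D3:**
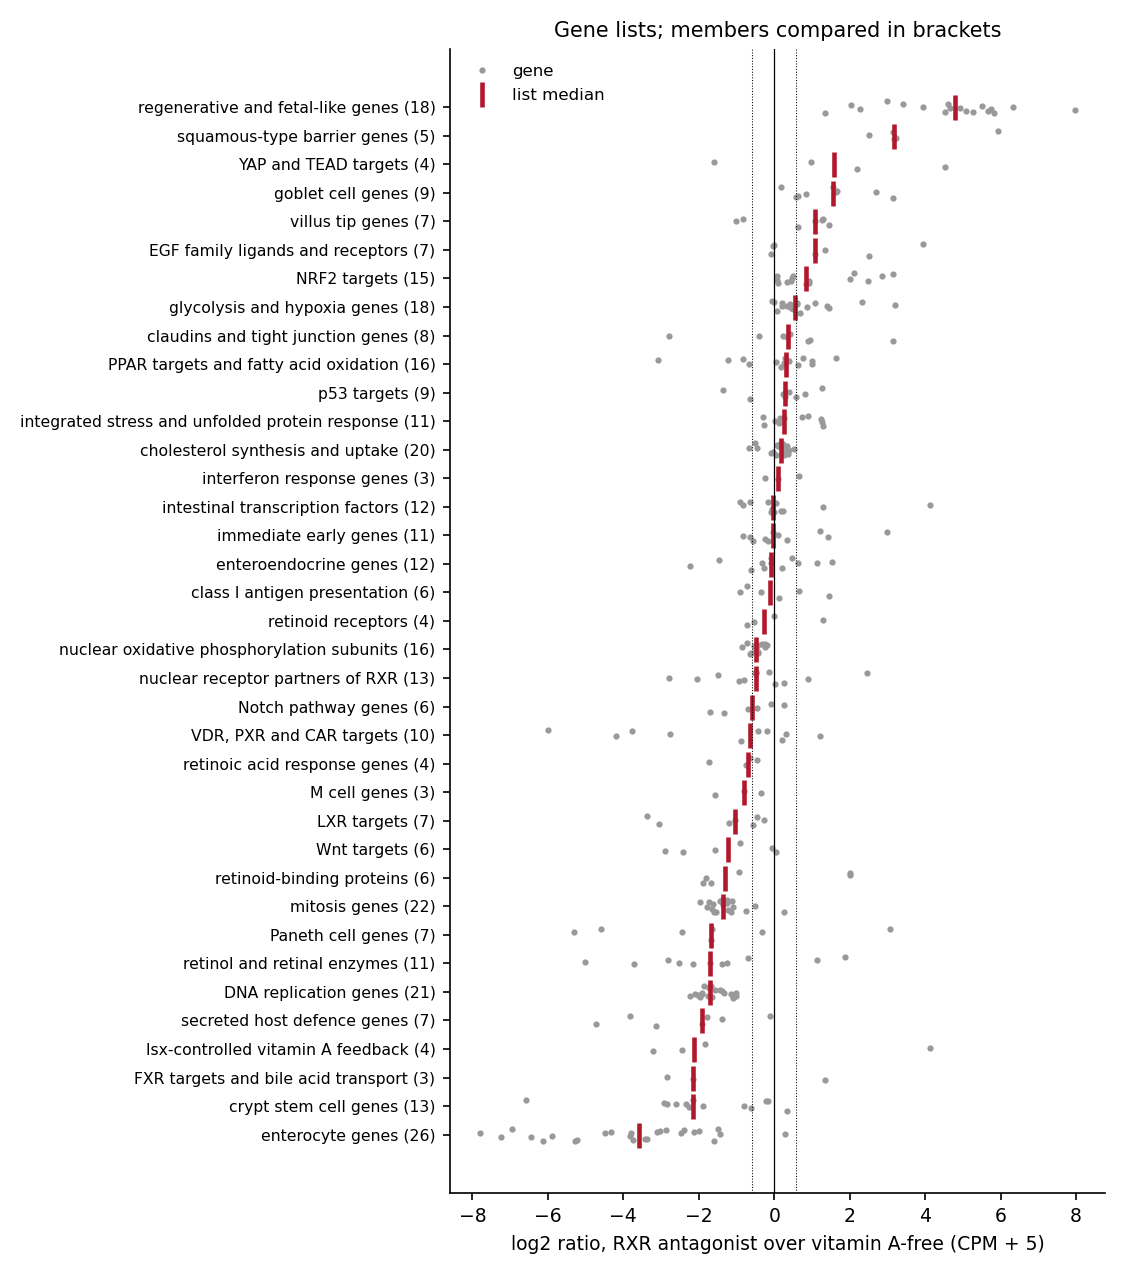
Log2 ratios, RXR antagonist over vitamin A-free medium in CPM + 5, of the members of each gene list with at least 3 members compared (grey points) with the list median (red bars), and dotted lines at 1.5-fold. Among the lists drawn, the regenerative list had the highest median, 4.80, and the enterocyte list the lowest, -3.59.

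Crypt stem cell and cell division genes were lower with the antagonist and, in the vitamin A-free library, above vehicle. Of 13 stem cell genes compared of 15 listed, 10 were at least 1.5-fold lower and 0 higher, with a median of -2.16. The same list had a median of 0.72 for vitamin A-free medium over vehicle and -1.23 for the antagonist over vehicle. Olfm4, a secreted marker of crypt base cells, had 0.750 CPM (0.528 to 1.03) with the antagonist, 547 CPM (540 to 553) without vitamin A and 279 CPM (275 to 284) with vehicle, 729-fold lower than without vitamin A (529 to 1036). Lgr5, the R-spondin receptor of these cells, had 12.8 CPM (11.8 to 13.8) with the antagonist, 74.8 CPM (72.5 to 77.2) without vitamin A and 36.8 CPM (35.2 to 38.5) with vehicle, 5.84-fold lower (5.37 to 6.36). Axin2, a Wnt target, had 2.78 CPM with the antagonist, 52.7 CPM without vitamin A and 27.4 CPM with vehicle, and Sox9, a Wnt target of the crypt base, had 7.64 CPM with the antagonist, 62.0 CPM without vitamin A and 37.2 CPM with vehicle. In all 4 genes the vitamin A-free library was highest and the antagonist library lowest. Of 6 Wnt targets compared of 12 listed, 4 were at least 1.5-fold lower, where 18.6% of all genes were.

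DNA replication genes were lower with the antagonist, 21 of 21 compared by at least 1.5-fold, and the median was -1.71. Mcm3, a subunit of the replicative helicase, had 14.1 CPM (13.1 to 15.2) with the antagonist, 76.2 CPM (73.8 to 78.6) without vitamin A and 51.4 CPM (49.5 to 53.4) with vehicle. Of 22 mitosis genes compared, 20 were at least 1.5-fold lower, with a median of -1.35, and Mki67 had 39.9 CPM with the antagonist, 130 CPM without vitamin A and 95.5 CPM with vehicle. For vitamin A-free medium over vehicle the replication list had a median of 0.40 and the mitosis list one of 0.39.

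Genes of the secretory lineages lay on both sides. Of 9 goblet genes compared of 11 listed, 7 were higher by 1.5-fold or more with the antagonist and 0 lower. The median was 1.56. Zg16, a lectin of mucus granules, had 1343 CPM (1333 to 1353) with the antagonist, 146 CPM (143 to 149) without vitamin A and 83.0 CPM (80.5 to 85.5) with vehicle. Muc2, the gel-forming mucin, had 79.0 CPM with the antagonist, 21.4 CPM without vitamin A and 13.0 CPM with vehicle, and Clca1, a secreted mucus protein, had 55.6 CPM with the antagonist, 4.35 CPM without vitamin A and 14.8 CPM with vehicle. Muc2 and Zg16 thus followed antagonist, vitamin A-free and vehicle from high to low.

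Paneth cell genes were lower, with 5 of 7 compared at least 1.5-fold lower and 1 higher, and a median of -1.67. Lyz1, lysozyme of Paneth cells, had 2.03 CPM (1.65 to 2.46) with the antagonist, 272 CPM (268 to 277) without vitamin A and 147 CPM (144 to 150) with vehicle, 134-fold lower than without vitamin A (110 to 165). Defa24, a defensin, had 28.1 CPM with the antagonist, 791 CPM without vitamin A and 496 CPM with vehicle. Defensins are close paralogs whose UMIs may be split uncertainly. The exception was Nupr1, a stress-induced nuclear protein on this list, at 1172 CPM with the antagonist, 136 CPM without vitamin A and 59.6 CPM with vehicle.

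The 12 enteroendocrine genes compared of 15 listed were split, with 3 at least 1.5-fold higher and 3 lower. Over all genes 12.5% were higher and 18.6% lower. The list's median of -0.09 ran from -0.20 to 0.48 over the alternative settings and so had no fixed sign. Gip, a hormone of the proximal gut, had 19 UMIs (0.385 CPM) with the antagonist, 20.5 CPM (19.3 to 21.7) without vitamin A and 22.2 CPM (20.9 to 23.5) with vehicle. Of the hormones of the distal gut, Pyy had 8.81 CPM with the antagonist against 1.35 CPM without vitamin A, and Nts had 20.4 CPM with the antagonist against 3.75 CPM without vitamin A. Neurog3, the factor that starts this lineage, had 1.99 CPM with the antagonist, 14.4 CPM without vitamin A and 9.37 CPM with vehicle. Nts had 0.0950 CPM (5 UMIs) with vehicle, so it was above vehicle in both the antagonist and the vitamin A-free library. The hormone-granule cells held 998 Nts UMIs with the antagonist and 192 without vitamin A. They numbered only 29 with the antagonist, 46 without vitamin A and 35 with vehicle. So few cells may be caught unevenly between libraries, which the counting intervals of hormone genes do not cover.

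Metabolic and stress genes differed to a lesser degree. Of 18 glycolysis and hypoxia genes compared, 9 were higher by 1.5-fold or more with the antagonist and 0 lower. The median was 0.55. Hk1, a hexokinase, had 112 CPM (109 to 115) with the antagonist, 7.79 CPM (7.05 to 8.59) without vitamin A and 6.57 CPM (5.90 to 7.31) with vehicle, and Slc2a1, the glucose transporter GLUT1, had 412 CPM with the antagonist, 78.1 CPM without vitamin A and 81.2 CPM with vehicle. Of 16 nuclear genes of oxidative phosphorylation, 4 were at least 1.5-fold lower, where 18.6% of all genes were, and 0 higher. Their median was -0.48. The 13 mitochondrially encoded genes had a median of -0.99 and 12 were lower. They took 1.83% of UMIs with the antagonist, 3.66% without vitamin A and 3.59% with vehicle.

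Targets of NRF2, the regulator of antioxidant genes, had 8 of 15 compared higher by 1.5-fold or more and 0 lower, and a median of 0.85. Slc7a11, which imports cystine, had 111 CPM (108 to 114) with the antagonist, 8.06 CPM (7.31 to 8.87) without vitamin A and 6.44 CPM (5.77 to 7.17) with vehicle, and Gclc, which makes glutathione, had 296 CPM with the antagonist, 48.8 CPM without vitamin A and 51.4 CPM with vehicle. Of 11 genes of the integrated stress and unfolded protein response, 5 were higher, where 12.5% of all genes were, and 0 lower. The secreted host defence genes lay low, with 6 of 7 compared at least 1.5-fold lower and a median of -1.92. Reg3a had 6 UMIs with the antagonist, 131 CPM (127 to 134) without vitamin A and 146 CPM with vehicle, and Reg1, of the same family, had 38.7 CPM with the antagonist, 616 CPM without vitamin A and 626 CPM with vehicle. Of 20 cholesterol genes 0 were higher and 1 lower at 1.5-fold.

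The higher level of the regenerative list was seen in most cells. With cells thinned to 5000 UMIs, which left out 228 cells with the antagonist, 197 without vitamin A and 368 with vehicle, the median cell had 75 regenerative-list UMIs with the antagonist, 4 without vitamin A and 4 with vehicle. Of antagonist cells 96.9% had more than 10, the 90th percentile of the vitamin A-free cells. The enterocyte list gave medians of 6 UMIs with the antagonist, 50 without vitamin A and 140 with vehicle, and 54.2% of antagonist cells had fewer than 8, the 10th percentile without vitamin A. The stem cell list gave medians of 1 with the antagonist, 3 without vitamin A and 1 with vehicle. No antagonist cell of 3342 exceeded 25 stem-list UMIs, the 90th percentile without vitamin A, and the highest had 18 with the antagonist against 133 without vitamin A. Cells of 1 library share their culture, so these spreads are over cells and not over cultures.

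Single genes were spread in the same manner. Ly6d was found in 46.4% of antagonist cells, 0.105% of vitamin A-free cells and 0.0679% of vehicle cells, and S100a6 in 86.0% of antagonist cells, 21.4% of vitamin A-free cells and 13.8% of vehicle cells. Olfm4 was found in 0.269% of antagonist cells, 25.3% of vitamin A-free cells and 15.7% of vehicle cells. Lgr5 was found in 6.07% of antagonist cells, 23.9% of vitamin A-free cells and 11.9% of vehicle cells. The hormone-granule cells had Ly6d in 6 of 29 cells with the antagonist, 0 of 46 without vitamin A and 0 of 35 with vehicle. They had S100a6 in 13 of 29 with the antagonist, 4 of 46 without vitamin A and 2 of 35 with vehicle. Within them Ly6d had 466 CPM with the antagonist and 0 UMIs without vitamin A. S100a6 had 642 CPM there with the antagonist and 17.7 CPM without vitamin A. For Ly6d and S100a6 these cells are thus no background. Used as background for Lgr5 and Olfm4, the hormone-granule cells had Lgr5 in 1 of 29 with the antagonist, 7 of 46 without vitamin A and 0 of 35 with vehicle. They had Olfm4 in 1 of 29 with the antagonist, 4 of 46 without vitamin A and 1 of 35 with vehicle. The Lgr5 and Olfm4 shares with the antagonist lie within the intervals of that background (0.0873 to 17.8% for each). With 29 cells these intervals are too wide to tell expression from background, so no conclusion is drawn. The Lgr5 share without vitamin A also lay within its own background interval (6.34 to 28.9%). Split by enterocyte RNA, Lgr5 was in 6.85% of 2774 antagonist cells with fewer than 50 enterocyte-list UMIs and in 2.29% of 568 cells with 50 or more, and without vitamin A in 45.4% of 2382 cells with fewer and in 2.47% of 2384 cells with 50 or more.

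**Figure D4:**
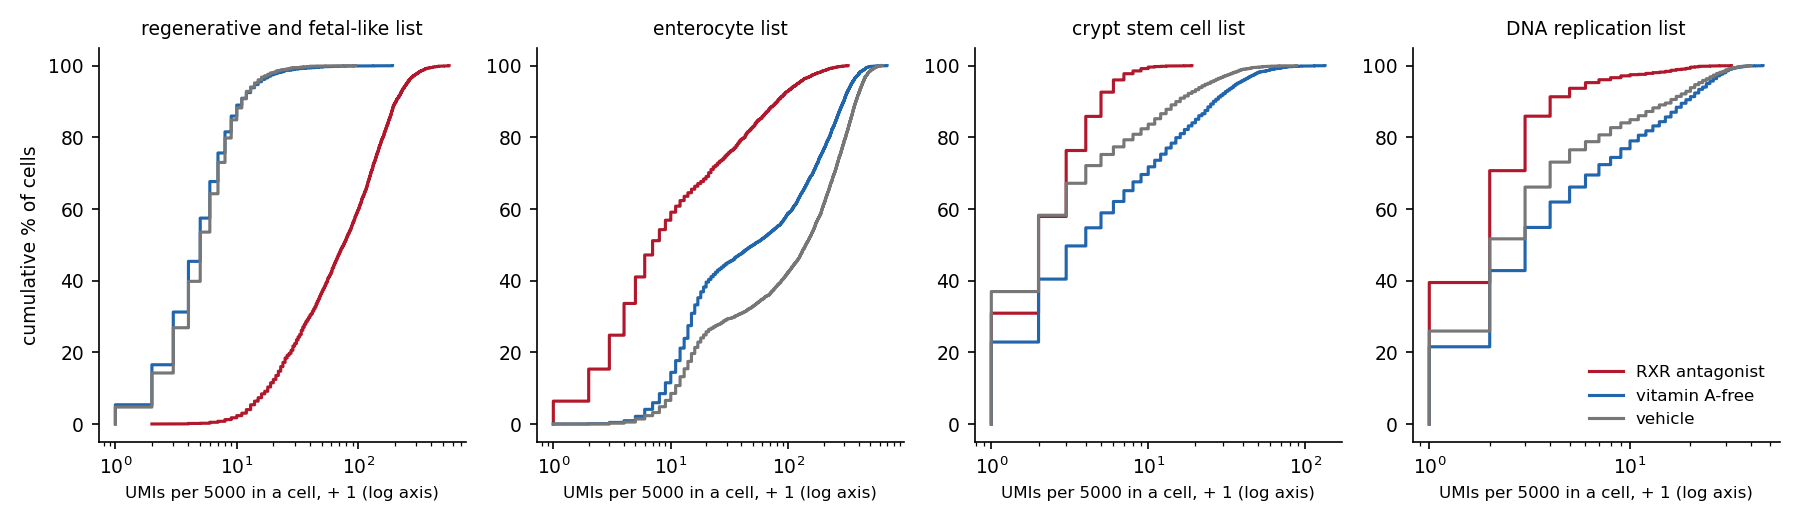
Cumulative share of cells (y axis, %) by UMIs of 4 gene lists per 5000 UMIs in a cell, plus 1, on log x axes, for the RXR antagonist, vitamin A-free and vehicle libraries. The antagonist curve lies to the right of both others for the regenerative list, with a median of 75 UMIs against 4 in each of the others, and to the left for the enterocyte list, with medians of 6 with the antagonist, 50 without vitamin A and 140 with vehicle.

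Cells rich in mitosis RNA were fewer with the antagonist. At least 10 UMIs of the mitosis list per 5000 were found in 269 of 3342 cells with the antagonist (8.05%, 7.15 to 9.02%), in 1075 of 4766 without vitamin A (22.6%, 21.4 to 23.8%) and in 773 of 4419 with vehicle (17.5%, 16.4 to 18.6%). This class is a range of a score and not a cell type, and 23 cells with the antagonist, 77 without vitamin A and 72 with vehicle had 9 or 10 UMIs.

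The libraries also differed within these cells. Isx had 230 UMIs (51.9 CPM, 45.4 to 59.1) with the antagonist, 0 UMIs without vitamin A and 145 CPM with vehicle. Bco1 had 5 UMIs with the antagonist, 87 without vitamin A and 11 with vehicle, 5.41-fold lower with the antagonist than without vitamin A (2.23 to 17.1). Olfm4 had 14 UMIs (3.16 CPM) with the antagonist, 848 CPM without vitamin A and 715 CPM with vehicle. Ly6a had 1532 CPM (1496 to 1569) with the antagonist, 8.22 CPM (6.79 to 9.85) without vitamin A and 5.09 CPM with vehicle. So Olfm4 was far lower and Ly6a far higher with the antagonist among mitosis-rich cells too. Of 9645 genes compared in these cells, 449 were at least 2-fold higher (4.66%) and 550 lower (5.70%), and at 1.5-fold 10.6% were higher and 13.2% lower. The regenerative list had 18 of 18 members at least 1.5-fold higher and a median of 4.47, the stem cell list 11 of 13 lower and a median of -2.15, and the enterocyte list 19 of 20 lower and a median of -2.5. The replication list came nearer to 0, with 10 of 22 lower and a median of -0.54, but its count changed with the cut. With at least 5 mitosis-list UMIs, 18 of 22 were lower (14.5% of all genes) and the median was -0.85. With at least 20, 4 of 22 were lower (12.7% of all genes) and the median was -0.43.

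**Figure D5:**
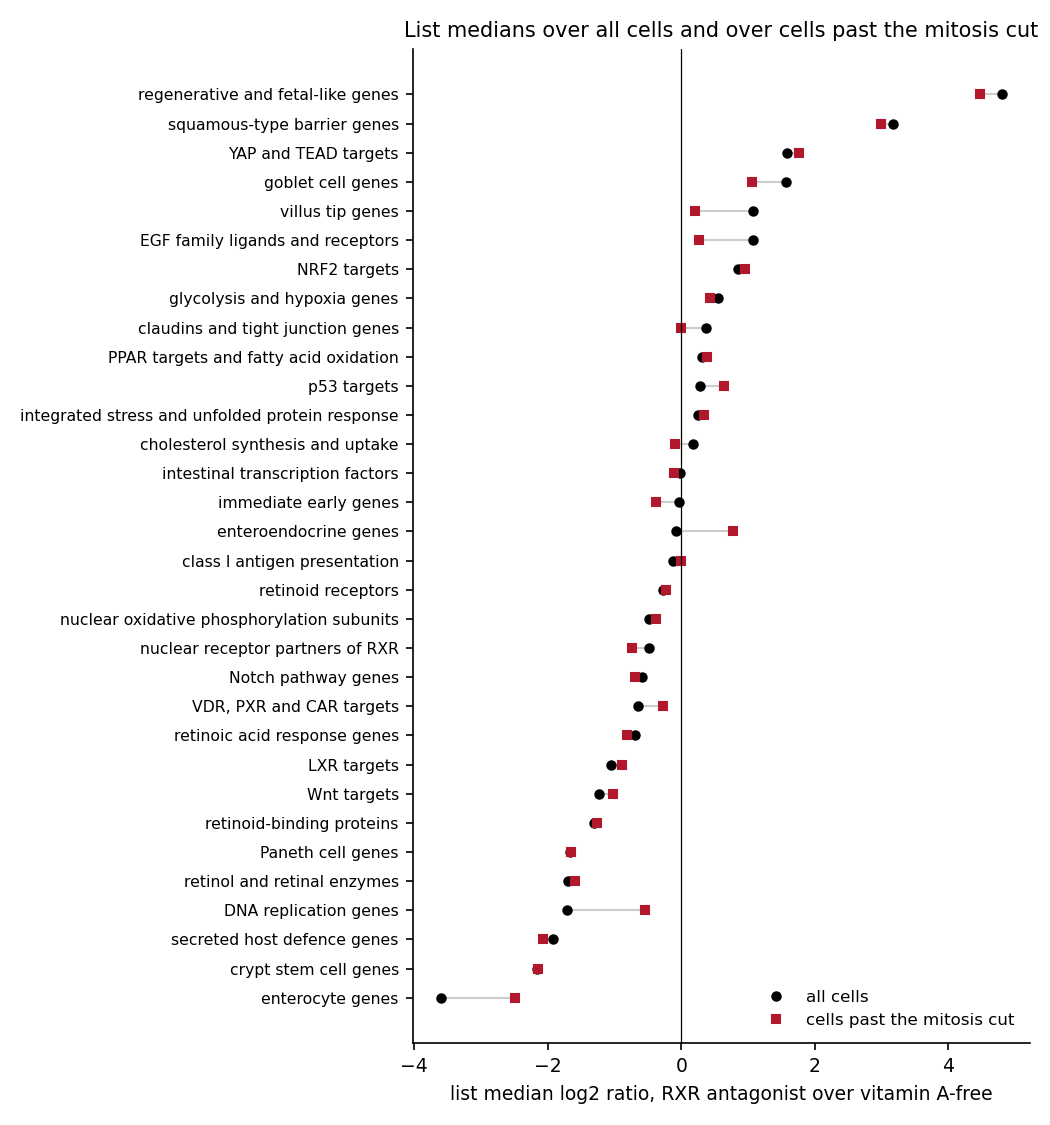
Median log2 ratio of each gene list, RXR antagonist over vitamin A-free medium, over all cells (black circles) and over cells with at least 10 mitosis-list UMIs per 5000 (red squares). Over all cells and then past the cut, the regenerative list had 4.80 and 4.47, the stem cell list -2.16 and -2.15, and the replication list -1.71 and -0.54. Past cuts of 5 and 20 UMIs, not drawn, the replication list had -0.85 and -0.43.

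Genes that set the vitamin A-free library apart from vehicle were not all matched by the antagonist. Besides Isx, Bco1 and Scarb1, Fmo5, a flavin monooxygenase, had 9.38 CPM (8.54 to 10.3) with the antagonist, 50.5 CPM (48.5 to 52.4) without vitamin A and 293 CPM (288 to 298) with vehicle. Il18, an epithelial cytokine, had 58.5 CPM with the antagonist, 78.9 CPM without vitamin A and 251 CPM with vehicle, and Lypd8, a secreted protein that binds bacteria, had 1406 CPM (1396 to 1417) with the antagonist, 1516 CPM (1505 to 1526) without vitamin A and 3536 CPM (3520 to 3553) with vehicle. Both libraries were thus below vehicle for Fmo5, Il18 and Lypd8, with the antagonist within 1.5-fold of the vitamin A-free level for Il18 and Lypd8. Gcg, which encodes glucagon and GLP-1, had 54.3 CPM with the antagonist, 37.5 CPM without vitamin A and 6.54 CPM with vehicle. Both libraries were above vehicle for this gene. The few hormone-granule cells held 2651 Gcg UMIs with the antagonist (29 cells), 1923 without vitamin A (46 cells) and 307 with vehicle (35 cells). Others were high without vitamin A alone, such as Ttr, the carrier of thyroxine and of retinol-binding protein, at 15.5 CPM with the antagonist, 70.5 CPM without vitamin A and 23.9 CPM with vehicle, and Ang4, an antimicrobial ribonuclease of Paneth and goblet cells, at 13.1 CPM with the antagonist, 52.6 CPM without vitamin A and 15.0 CPM with vehicle. Tubb2b had 24.6 CPM with the antagonist, 68.1 CPM without vitamin A and 12.6 CPM with vehicle and lay above vehicle in both libraries.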

How the data were processed

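The authors deposited raw UMI counts for each gene in each barcode, not normalized. Per the labels' protocols, dead cells and debris were removed by sorting before droplet 3-prime libraries were made. The submitters' processing notes list Cell Ranger 3.1.0, bcl2fastq 2.17 and GRCm38, without saying what each did. Of 55335 genes in the files, 54486 IDs matched the annotation used for positions. All deposited barcodes were kept, which had at least 1001 genes. Doublets were not removed in the results given. Scrublet in scanpy 1.11.5 called 0 cells with the antagonist and 67 without vitamin A (1.35%), and the alternative removed 102 and 197.

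The UMIs of each library's cells were added up and expressed as CPM. Genes needed a mean of 5 CPM over the libraries compared, log2 ratios added 5 CPM, and folds are ratios of CPM without it, with exact conditional intervals (95%). A gene at 0 UMIs was bounded at 3 UMIs. With 1 library per group no test was made. Cells of at least 5000 UMIs were thinned to 5000 for measures per cell. The method was tested on simulated data with known fold changes. These data held counting error only, so the test says nothing of spread between cultures or cells. Scaling alternatives used edgeR 4.0.16 and DESeq2 1.42.0 in R 4.3.3.

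Named genes were the 12 highest and 12 lowest ratios without predicted genes, up to 4 members per list with the largest ratios, all vitamin A lists, the 8 highest and 8 lowest of vitamin A-free medium over vehicle, and the genes of the per-cell shares. The text gives those it needs. Members and lists were chosen with earlier results of these data known. Motifs were searched as spelled in RefSeq promoters. Other groups of the series were not analysed here beyond the values given.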

Additional observations from a re-analysis of the deposited data

How the results depend on the processing

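With TMM factors the median log2 ratio of all genes was 0.084 and with DESeq2 size factors 0.10, against -0.09 at equal totals. A pseudocount of 20 CPM gave 318 genes higher by 2-fold or more with the antagonist and 417 lower, and a floor of 50 CPM gave 270 and 276, against 575 and 860. Fewer genes were tested at the higher floor. A pseudocount of 1 CPM gave 703 and 1151. The median of the retinoid-binding list was 0.10 at the floor of 50 CPM, against -1.31, with fewer members tested. Within cells of at least 5 goblet-list UMIs, the median of the vitamin A feedback list was -0.69, over 3 members compared, and it was 1.57 with at least 3 and 1.52 with at least 10, over 2 members each. The YAP list there had a median of -1.16 over 3 members, and 0.27 with at least 3 over 5 members. The members past the floor thus changed with the cut. These cells are not described above because they held most Lyz1 UMIs of the vitamin A-free library. With the cut of 5, Rbp2 lay the other way in them than over all cells. It had 721 CPM (693 to 750) with the antagonist, 372 CPM (349 to 396) without vitamin A and 657 CPM with vehicle. Of 37 list medians, 23 lay past 1.5-fold, of which 22 had the same sign and 12 stayed past 1.5-fold in all 10 settings. Lists that fell within 1.5-fold in some setting included the targets of LXR, FXR, NRF2, Wnt and YAP, and those of VDR, PXR and CAR. The others were the EGF family, Notch pathway, M cell, retinoic acid response and retinoid-binding lists. Of 186 named genes with values, 140 lay past 2-fold, of which 140 had the same sign and 110 stayed past 2-fold in all 10. Genes described above that fell within 2-fold in some setting were Acadl, Bco2, Ccn2, Cd68, Dhrs9, Ehhadh, Gip, Lrat, Neurog3 and Nts. Pyy, Rarg, Slc10a2, Slc51a, Tgm2 and Tubb2b did so too, as did Avil, Dll1 and Notch1, which are given below. All settings rework the same libraries, so a kept sign says nothing of spread between cultures. No paired analysis was possible because each group compared has 1 library. Depth limits the low genes: 3 UMIs are 0.0608 CPM with the antagonist and 0.0577 CPM without vitamin A.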

Other observations

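Class I antigen presentation genes were split, with 2 of 6 compared higher by 1.5-fold or more with the antagonist and 2 lower. Of all genes, 12.5% were higher and 18.6% lower. H2-D1, a class I heavy chain, had 708 CPM (701 to 716) with the antagonist, 254 CPM (249 to 258) without vitamin A and 323 CPM (318 to 327) with vehicle, while its partner B2m had 175 CPM (172 to 179) with the antagonist, 332 CPM (327 to 337) without vitamin A and 400 CPM (395 to 406) with vehicle. The heavy chain and its light chain thus lay on opposite sides of the vitamin A-free level. Claudins were split too. Cldn15, which forms cation pores in absorptive gut, had 57.7 CPM with the antagonist, 431 CPM without vitamin A and 557 CPM with vehicle, and Cldn2, which forms such pores in crypts, had 266 CPM with the antagonist, 140 CPM without vitamin A and 114 CPM with vehicle.

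Of 6 Notch pathway genes compared, 3 were at least 1.5-fold lower, where 18.6% of all genes were, and 0 higher. Notch1 had 4.19 CPM with the antagonist, 18.0 CPM without vitamin A and 12.4 CPM with vehicle, and its ligand Dll1 had 1.80 CPM with the antagonist, 17.2 CPM without vitamin A and 16.9 CPM with vehicle. Avil, the only tuft cell gene of 7 that passed the floor, had 10.5 CPM (9.59 to 11.4) with the antagonist, 0.866 CPM (0.631 to 1.16) without vitamin A and 0.608 CPM (0.416 to 0.858) with vehicle.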
